A study of Homo sapiens with 30 samples.

Results

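The replication-dependent histone genes were the 69 genes of the count tables whose symbols follow the families H1-1 to H1-6, H2AC, H2BC, H3C and H4C, out of 61578 genes in all. They comprised 6 H1, 17 H2A, 18 H2B, 13 H3 and 15 H4 genes, chosen by name and not by their values. These genes encode the linker histone H1 and the core histones H2A, H2B, H3 and H4, the proteins around which newly copied DNA is wrapped, and most stand in clusters on chromosomes 6 and 1. Their main mRNAs carry no poly(A) tail: they end shortly after a conserved stem-loop that is bound by SLBP and cut with the help of the U7 snRNP, and they accumulate in S phase. A part of the same genes also gives rise to polyadenylated transcripts, and these are the form that libraries of poly(A) RNA can hold.

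The 30 libraries came from 15 groups of 2, each labelled A549, a line from a human lung adenocarcinoma. In 7 lines the endogenous RPB1, the largest subunit of RNA polymerase II encoded by POLR2A, carries a degron, a tag through which dTAGV-1 triggers its degradation. The degron line has no replacement, and it was either treated with 100 nM dTAGV-1 for 12 h or left untreated. The other 6 lines carry a doxycycline-induced RPB1 that is WT or mutated in the repeats of its C-terminal domain, named Y1F, S2A, T4V, S5A and S7A after the residue of the repeat that is exchanged; they were treated with 2 µg/mL doxycycline for 24 h and then 100 nM dTAGV-1 for 12 h, or left untreated. The remaining group, Mock, is untreated and has genotype WT with no degron named. The labels do not say whether the libraries of a group came from separate cultures or whether a line is 1 clone, so the p-values below measure the spread between these libraries. In the complemented lines the effects of doxycycline and of dTAGV-1 cannot be told apart.

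Library totals ran from 10866089 to 17912802 counts. POLR2A mRNA, which the degron does not target, stood at 411 to 1760 CPM (counts per 1e6 counts, scaled between libraries by TMM factors) in the 14 treated libraries, against 278 to 572 CPM in the 14 untreated libraries of the same lines, and reads of the endogenous and the induced copy were counted together. The marker genes listed for A549 went against the label: their summed level was 35100 and 35200 CPM in Mock and 78.0 to 183 CPM in the other 28 libraries, with AKR1B10, KRT7 and TM4SF1 at or near 0 in those 28. Of the 18 markers 15 were lower in each of the 28 than in both Mock libraries, SFTPB and SFTPC overlapped, and NKX2-1 was higher, at 1.2 to 10.6 CPM in the 28 and 0 and 0.307 CPM in Mock. IRS4, an insulin receptor substrate, was at 50.7 to 1460 CPM in the 28 and at 0.0958 and 0.102 CPM in Mock. Mock was therefore compared with no other group, and each line was compared with its own untreated libraries.

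The main form of histone mRNA ends shortly after the stem-loop, whose sequence is shown for 7 of the genes whose values are given below. It was searched on the sense strand of the GENCODE 29 transcripts as a pair of arms of 6 bases around a short loop rich in T, the first arm beginning GG and the second ending CC, with at least 5 of the 6 positions able to pair. Each stretch is given 5′ to 3′ with the stem-loop in capitals.
H2AC6: ccaaaGGCTCTTTTCAGAGCCcccctaccg
H2AC25: ataaaGGCTCTTTTCAGAGCCacctactat
H2BC5: ccaaaGGCTCTTTTAAGAGCCacgcatgtt
H2BC21: ccaaaGGCTCTTTTCAGAGCCacccaccta
H3C10: ccaaaGGCTCTTTTCAGAGCCacccacatg
H4C8: ccaaaGGCCCTTTTCAGGGCCgcccacttt
H4C14: ccaaaGGCCCTTTTTAGGGCCgaccacttg
The H4 genes shown share the arm GGCCC where the H2A, H2B and H3 genes shown have GGCTC. The annotation held the stem-loop in a transcript of 29 of the 65 members it lists, against 250 of 19619 other protein-coding genes (1.27%). In 23 of those 29, a transcript ran 100 bases or more past the stem-loop. No stem-loop was found in the transcripts of the 6 H1 genes, nor in that of H2BC12, and a search of annotated transcripts says nothing of sequence beyond their ends. The transcripts searched for H2BC12 and H1-2 had 381 and 642 bases, against gene models of 495 and 731 bases. That these genes lack a stem-loop therefore cannot be read from the search.

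The promoters of the classes differ in their short motifs, shown here for the most abundant H1, H2B and H4 genes. Each window holds 250 bases before and 50 bases after the start in RefSeq on GRCh38.p14, on the gene's strand, with the motifs found in capitals.
H1-2, chr6:26056421-26056720, minus strand: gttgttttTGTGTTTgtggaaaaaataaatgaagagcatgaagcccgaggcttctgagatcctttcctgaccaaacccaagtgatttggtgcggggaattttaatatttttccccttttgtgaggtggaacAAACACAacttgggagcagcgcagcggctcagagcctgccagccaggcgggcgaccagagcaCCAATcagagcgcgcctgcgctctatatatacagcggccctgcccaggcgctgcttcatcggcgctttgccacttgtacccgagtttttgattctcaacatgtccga
H2BC12, chr6:27146809-27147108, minus strand: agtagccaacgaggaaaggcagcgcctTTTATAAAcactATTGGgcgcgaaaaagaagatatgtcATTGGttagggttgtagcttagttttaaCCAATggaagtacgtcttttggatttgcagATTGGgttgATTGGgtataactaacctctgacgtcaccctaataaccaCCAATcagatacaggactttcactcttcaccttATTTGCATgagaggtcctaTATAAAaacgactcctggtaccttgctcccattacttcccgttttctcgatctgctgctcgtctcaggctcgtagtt
H4C8, chr6:26285485-26285784, minus strand: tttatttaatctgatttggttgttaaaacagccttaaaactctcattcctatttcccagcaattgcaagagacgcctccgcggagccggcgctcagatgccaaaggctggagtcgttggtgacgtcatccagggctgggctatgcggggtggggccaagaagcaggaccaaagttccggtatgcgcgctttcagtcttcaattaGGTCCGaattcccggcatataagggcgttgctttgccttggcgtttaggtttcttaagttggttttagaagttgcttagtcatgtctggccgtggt
The motifs were searched on both strands in the 64 members with a RefSeq promoter and in 27241 other promoters of the same length. AAACACA stood in the promoters of 6 of 6 H1 genes and in 5.74% of the others. ATTTGCAT, the octamer, stood in 14 of 18 H2B and 11 of 16 H2A promoters, against 1.71% of the others, and in H2BC12 it lies between a CCAAT box and a TATAAA motif. The H4 motif GGTCCG stood in 12 of 13 H4 promoters and 11.1% of the others, while CCAAT stood in every H1, H2A, H2B and H3 promoter of the 64, in 3 of 13 H4 promoters and in 35.6% of the others. TATAAA was found in 42 of the 64 and in 11.8% of the others. A match describes the letters in these windows and no more.

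Few reads fell on the histone genes in these poly(A) libraries: 778 to 4933 counts a library, or 0.00646% to 0.0388% of the total. H2BC1, H3C4 and H3C14 had no count in any library. The low-count filter kept 35 members for the test (4 H1, 10 H2A, 10 H2B, 6 H3 and 5 H4), and the 34 it left out held 1.89% of the members' counts. Among the H4 genes the share left out was 17.4%. H2BC12 alone took 35.6% of the members' counts, and H1-2 took 89.4% of those of the H1 class. Per length, H2BC12 averaged 479 TPM (transcripts per 1e6 transcripts) over the 30 libraries and H1-2 108 TPM, followed by H2BC5 at 41.5 TPM, H2AC25 at 22.1 TPM, H2AC11 at 21.8 TPM and H2AC6 at 20.8 TPM. The H3 and H4 genes were lower, led by H3C10 at 16.1 TPM and H3C6 at 11.9 TPM.

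With TMM scaling, histone mRNA in the poly(A) fraction was higher after treatment, relative to other mRNAs, in each of the 7 lines. Such a relative level does not separate more histone mRNA from less of the other mRNAs. Summed over all 69 members with no filter, it was 134 and 147 CPM in treated degron libraries, against 74.3 and 62.3 CPM in untreated ones. It reached 369 and 365 CPM in treated S5A libraries, against 92.8 and 96.8 CPM in untreated S5A libraries, the largest ratio of means (3.87) of the 7. The smallest was 1.83 in the WT line, with 141 and 167 CPM in treated and 88.3 and 79.7 CPM in untreated libraries. In all 7 lines both treated libraries were above both untreated ones. This order holds for TMM scaling. With libraries scaled by mitochondrial mRNAs the ratio was smallest in the degron line (1.47, against 1.58 in WT) and largest in Y1F (2.62, with 2.32 in S5A). It was smallest in the degron line with the authors' factors (1.14, against 1.59 in WT) and largest in S5A (2.0). The Mock libraries held 188 and 194 CPM. In bulk libraries more cells that express these genes and more RNA per cell cannot be told apart.

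**Figure D1:**
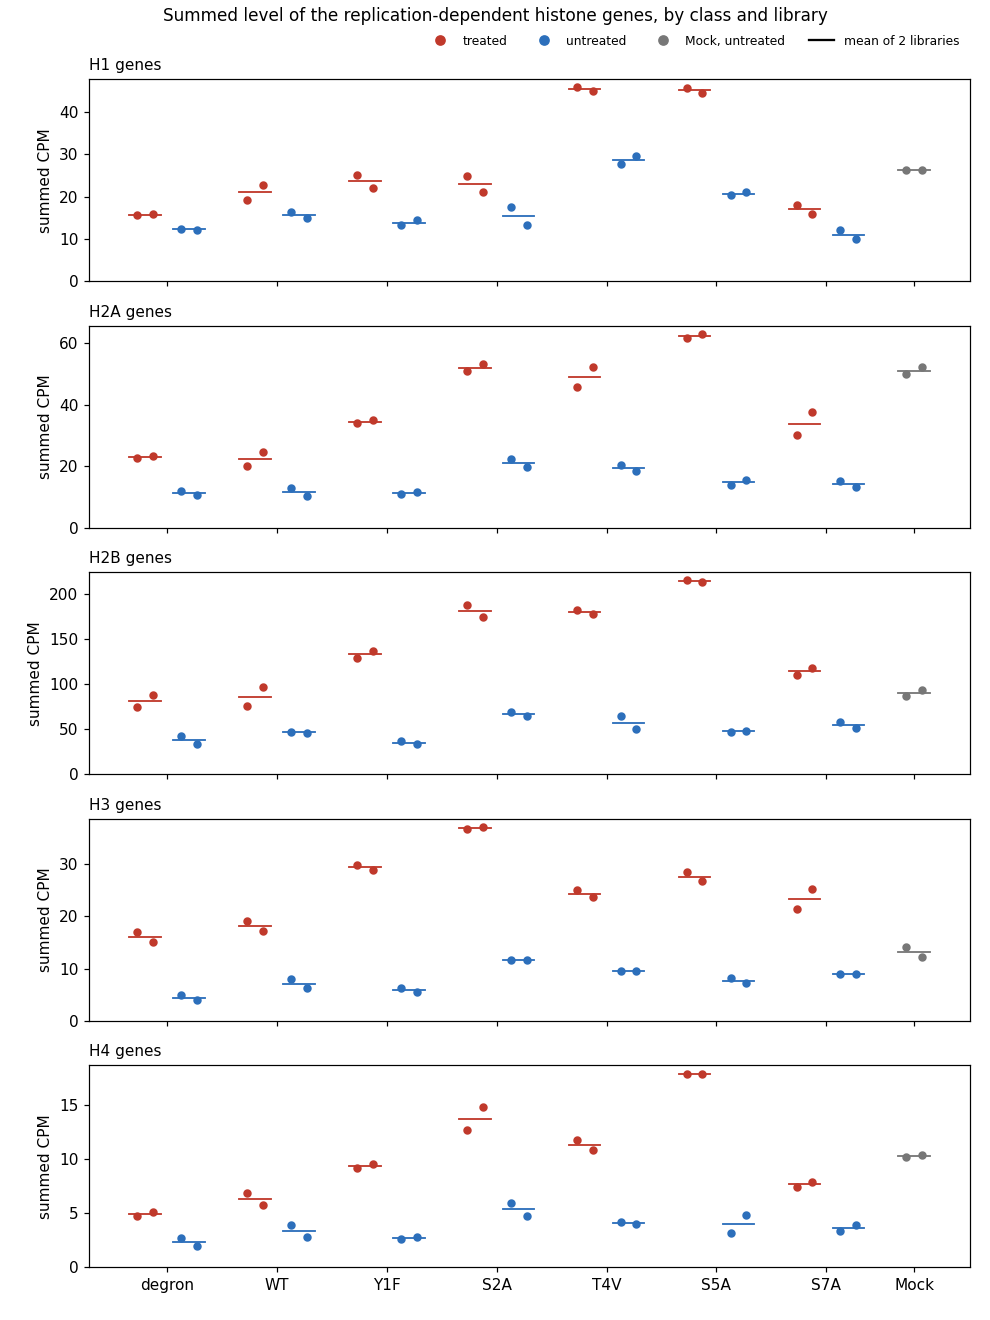
Summed level of all genes of each histone class in CPM, for each library (points) with the mean of 2 (bars), in 7 lines treated (red) or untreated (blue) and in Mock (grey). With TMM scaling, in each class and line both treated libraries lie above both untreated ones, and H2B is the class with the highest sums, up to 215 CPM in treated S5A.

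Of the 35 members tested, 16 to 33 rose in a line and none fell (edgeR's quasi-likelihood test, Benjamini-Hochberg adjusted p under 0.05 over 19982 genes). Of these 35, 18 reached the level of the filter (0.764 CPM) in fewer than 2 of the 14 untreated libraries of the 7 lines. They passed it through treated or Mock libraries, so the counts and medians over the 35 are a description only. In the degron line 24 of 35 rose, where 23.1% of all genes tested rose. In the WT line 16 of 35 rose against 3.09% of all genes, but 6 to 13 with 1 library left out (10 without untreated replicate 1 and 6 without untreated replicate 2) and 3 in a fit of the WT libraries alone. In Y1F 32 of 35 rose against 23.1%, and in S2A 29 of 35 against 17.0%. In T4V 29 of 35 rose against 14.8%, in S5A 33 of 35 against 25.5%, and in S7A 25 of 35 against 17.8%. The shares of all genes that fell were 21.4% in the degron line, 21% in Y1F, 1.84% in WT, 14.0% in T4V, 18.2% in S2A, 17.1% in S7A and 24.2% in S5A. No member fell at an unadjusted p under 0.05 in edgeR either, and none fell in DESeq2's Wald test. The median log2 fold change of the 35 was 1.59 in the degron line, 2.12 in Y1F, 1.14 in WT, 1.89 in T4V, 1.80 in S2A, 1.49 in S7A and 2.28 in S5A, against -0.01 to 0.05 for all genes tested. H3C1 in WT and H2AC4 in S2A had no count in the untreated libraries; with each set to its lower bound, the median was 1.14 in WT and 1.66 in S2A.

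The 17 members that did reach that level in 2 or more of the untreated libraries were also counted, a choice made after seeing the data, and are set beside the 16689 tested genes that reached it. Of the 17, 12 rose in the degron line, where 19.3% of those genes rose, 16 in Y1F (18%), 10 in WT (2.46%) and 15 in T4V (13.4%). In S2A 13 rose (14.0%), in S7A 14 (13.5%) and in S5A 15 (19.9%). None of the 17 fell in any of the 7 lines, and their median log2 fold change was 0.84 in WT to 1.82 in S5A. Of the other 18, among them H1-3, H2BC6, H3C1 and H4C9, 6 rose in WT and 18 in S5A. They passed the filter through treated or Mock libraries, so these 2 counts are a description only. Of all 19982 genes tested, 618 rose in WT, and 411 of the 618 were among the 16689. In S5A 5098 rose, and 3318 of these were among the 16689.

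Many members are near the limit of counting. Of the 35, 27 averaged under 5 CPM, and 18 of these are the members that passed the filter through treated or Mock libraries, so their counts are likewise a description. Among these 27, 17 rose in the degron line, where 28.6% of the 8328 genes tested at that level rose, 10 in WT (4.45%), 24 in Y1F (33.3%) and 21 in S2A (21.7%). In T4V 21 rose (14.8%, as among all genes), in S5A 25 (36.1%) and in S7A 17 (25.8%). Of the 8 members at 5 CPM or more, 7 rose in the degron line, where 19.1% of the 11654 genes tested at that level rose, and 6 in WT (2.12%). All 8 rose in each of the other 5 lines, where the share was 15.8% in Y1F, 14.8% in T4V, 13.6% in S2A, 12.0% in S7A and 18% in S5A. The mean was taken over all libraries, treated and Mock included. A member such as H2BC5 can thus reach 5 CPM through treated or Mock libraries, so the counts over these 8 are a description too.

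**Figure D2:**
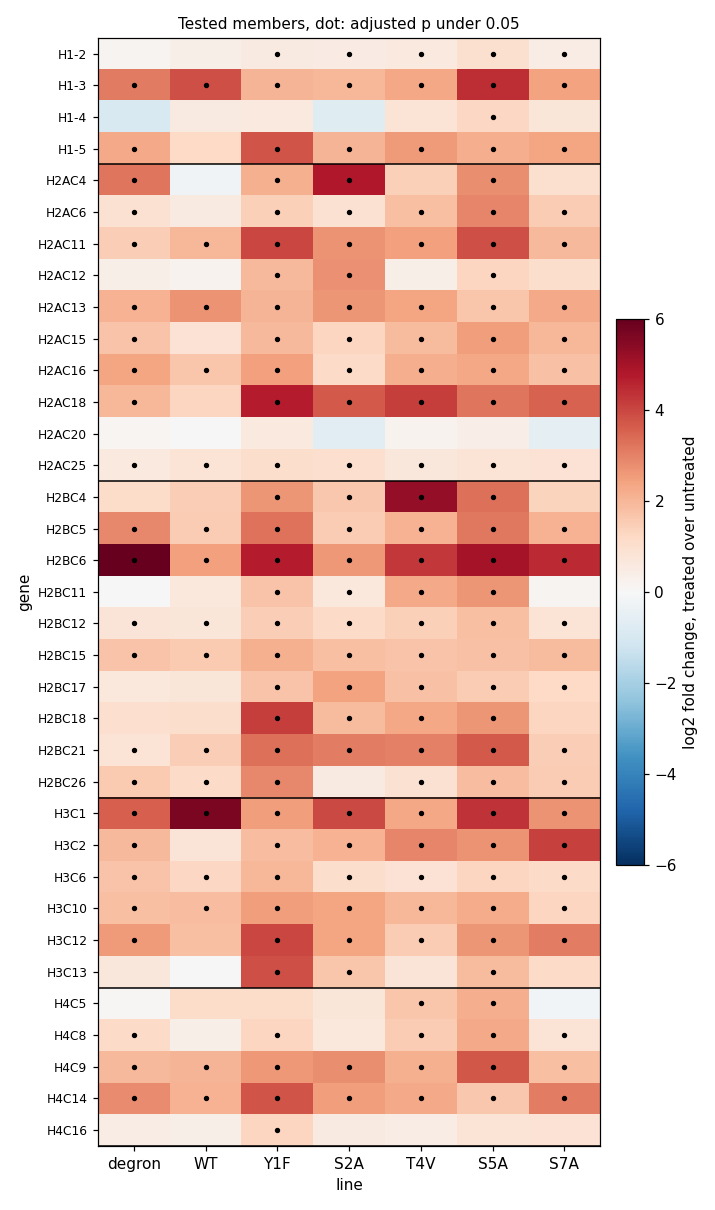
Log2 fold change, treated over untreated, of the 35 tested members (rows, by class, separated by lines) in 7 lines (columns). A dot marks an adjusted p under 0.05: 15 members have a dot in all 7 lines and H2AC20 has none.

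Of the 4 linker histone genes tested, 2 rose in the degron line, 1 in WT, 4 in S5A and 3 in each of Y1F, S2A, T4V and S7A. The counts by class, here and below, are to be read against the shares of all genes that rose, 3.09% in WT to 25.5% in S5A. These counts are a description only: in this class H1-3, H1-4 and H1-5 passed the filter through treated or Mock libraries. H1-2, which supplies most H1 reads, had the smallest change of the 8 members at 5 CPM or more in each line but S5A: it stood at 12.4 and 12.9 CPM in treated degron libraries, against 11.6 and 11 CPM in untreated ones. In S5A it stood at 39.0 and 38.0 CPM in treated libraries, against 19.5 and 19.7 CPM in untreated ones. Its log2 fold change was 0.97 ± 0.13 in S5A (SE, n = 2 against 2, edgeR adjusted p = 3.3e-06) and 0.44 to 0.57 in Y1F, S2A, T4V and S7A, where it also passed the test. Its direction turned in S2A (-0.02) and T4V (-0.01) with libraries scaled by mitochondrial mRNAs, and in Y1F (-0.32), S2A (-0.05), S7A (-0.37) and the degron line with the authors' factors. In the degron line it then fell, by 0.69 ± 0.23 on the log2 scale (edgeR adjusted p = 0.0064). It did not pass in the degron line (0.16 ± 0.14, edgeR adjusted p = 0.37) or in WT (0.35 ± 0.14, edgeR adjusted p = 0.15). H1-3 stood at 0 to 0.436 CPM in the untreated libraries of the 7 lines and rose in all 7: it had 3.02 and 3.33 CPM in treated S5A libraries, against 0.126 and 0.159 CPM in untreated ones (log2 fold change 4.41 ± 0.47, edgeR adjusted p = 1.5e-07). In the WT line H1-3 had 16 counts in the 2 treated libraries and 1 in the untreated ones, a ratio of 18.2 with a 95% counting interval of 2.83 to 764, which covers counting error only. H1-5 rose in 6 of the 7 lines, all but WT, with log2 fold changes of 2.02 to 3.77 in those 6. H1-4, with 166 counts in the 30 libraries, rose in S5A (1.25 ± 0.51, edgeR adjusted p = 0.049) and in no other line, and its value in the degron line was -0.91 ± 0.73. Without H1-2, the summed H1 level was 2.53 to 5.84 times higher in treated than in untreated libraries across the 7 lines, while with it the ratios were 1.29 to 2.17. With the authors' factors the ratio with H1-2 was below 1 in the degron line (0.709), Y1F (0.929) and S7A (0.874), and with mitochondrial scaling in the degron line (0.919).

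Of the 10 H2A genes tested, 8 rose in the degron line, 4 in WT, 7 in each of T4V and S7A, and 9 in each of Y1F, S2A and S5A. H2AC4, H2AC16 and H2AC18 are among the H2A genes that passed the filter through treated or Mock libraries. H2AC25, the most abundant, rose in all 7 lines with TMM scaling, with log2 fold changes of 0.59 to 1.07 and edgeR adjusted p-values up to 0.0081. It stood at 11.5 and 11.5 CPM in treated Y1F libraries, against 5.80 and 5.16 CPM in untreated ones. With the authors' factors its direction turned in the degron line (-0.26) and S5A (-0.12). H2AC6 covered a wider range, with log2 fold changes of 0.52 to 2.93. It had 24.5 and 26.4 CPM in treated S5A libraries, against 3.47 and 3.18 CPM in untreated S5A libraries, a log2 fold change of 2.93 ± 0.15 (edgeR adjusted p = 4.7e-12). In the WT line it had 3.65 and 3.92 CPM in treated and 2.77 and 2.50 CPM in untreated libraries, groups that did not overlap but whose change did not pass the test (0.52 ± 0.18, edgeR adjusted p = 0.14). H2AC11 rose in all 7 lines, up to 11.2 and 12.4 CPM in treated S5A libraries against 0.567 and 1.11 CPM in untreated ones (3.85 ± 0.29). H2AC13, of which 51.7% of the 150-base windows also occur in another member, mostly H2AC14, also rose in all 7 lines, by 1.68 to 2.68 on the log2 scale, and its reads may be shared with that copy. H2AC18 had the largest change of the tested members in Y1F, 43 counts in treated against 1 in untreated libraries, a ratio of 32.4 with a counting interval of 5.52 to 1310. No transcript of H2AC18 was available for the comparison of windows, so whether its reads are shared with another member was not tested. H2AC4 had no count in the untreated S2A libraries and 6 in the treated ones, at least 2.42-fold higher against a floor of 3 counts over the group. H2AC20 passed the test in no line, with log2 fold changes of -0.64 to 0.57, and its treated and untreated libraries overlapped in all lines but S2A and S7A, where the treated ones were lower.

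Of the 10 H2B genes tested, 6 rose in each of the degron and WT lines, 9 in S2A, 7 in S7A and 10 in each of Y1F, T4V and S5A. Among them H2BC4, H2BC6 and H2BC18 passed the filter through treated or Mock libraries. H2BC12 rose in all 7 lines, although its value in the degron line was -0.09 with the authors' factors: it had 122 and 120 CPM in treated S5A libraries, against 34.2 and 34.3 CPM in untreated ones, a log2 fold change of 1.82 ± 0.18 (edgeR adjusted p = 3.7e-08). In the WT line it had 48.1 and 70.7 CPM in treated and 36.3 and 34.9 CPM in untreated libraries (0.74 ± 0.17, edgeR adjusted p = 0.014). The spread between the treated WT libraries was wide, yet they did not overlap the untreated ones. H2BC21 and H2BC5, at lower levels, also rose in all 7 lines. H2BC21 had 35.5 and 33.2 CPM in treated S2A libraries, against 4.17 and 3.94 CPM in untreated ones (3.08 ± 0.17, edgeR adjusted p = 1.7e-11). In the degron line H2BC21, whose value there was -0.02 with the authors' factors, had 3.31 and 3.35 CPM in treated and 2.32 and 1.36 CPM in untreated libraries (0.83 ± 0.22, edgeR adjusted p = 0.0043). H2BC5 had 11.3 and 11.6 CPM in treated degron libraries, against 1.59 and 1.44 CPM in untreated ones (2.90 ± 0.17, edgeR adjusted p = 3.8e-11). Its log2 fold change was 3.24 ± 0.17 in Y1F, 3.16 ± 0.15 in S5A and 1.54 ± 0.17 in WT.

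H2BC6 stood at 0 to 0.601 CPM in the untreated libraries of the 7 lines, and at 1.23 and 1.2 CPM in Mock. It had the largest log2 fold change of the tested members in the degron, S5A and S7A lines. Its level was 2.69 and 3.12 CPM in treated degron libraries, against 0 and 0.0801 CPM in untreated ones. That is 98 counts against 1, a ratio of 80.3 with a counting interval of 14.1 to 3200. In S5A it had 5.37 and 6.22 CPM in treated and 0.252 and 0.0796 CPM in untreated libraries (4.98 ± 0.36, edgeR adjusted p = 7.2e-10), and in WT 1.2 and 1.03 CPM in treated and 0.189 and 0.208 CPM in untreated libraries (2.46 ± 0.47, edgeR adjusted p = 0.0033). H2BC11 rose in 4 of the 7 lines: in T4V, to 11.8 and 11.3 CPM in treated libraries against 2.54 and 2.25 CPM in untreated ones (2.26 ± 0.18), and in S5A (2.65 ± 0.17), Y1F (1.69 ± 0.22) and S2A (0.62 ± 0.18). In the degron line it stood at 1.90 and 2.31 CPM in treated and 2.26 and 1.84 CPM in untreated libraries, which overlap (0.03 ± 0.22, edgeR adjusted p = 0.95), and in S7A its value was 0.17 ± 0.22. The largest H2B change in T4V was that of H2BC4, 39 counts in treated against 1 in untreated libraries, a ratio of 49.5 with a counting interval of 8.38 to 2000.

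**Figure D3:**
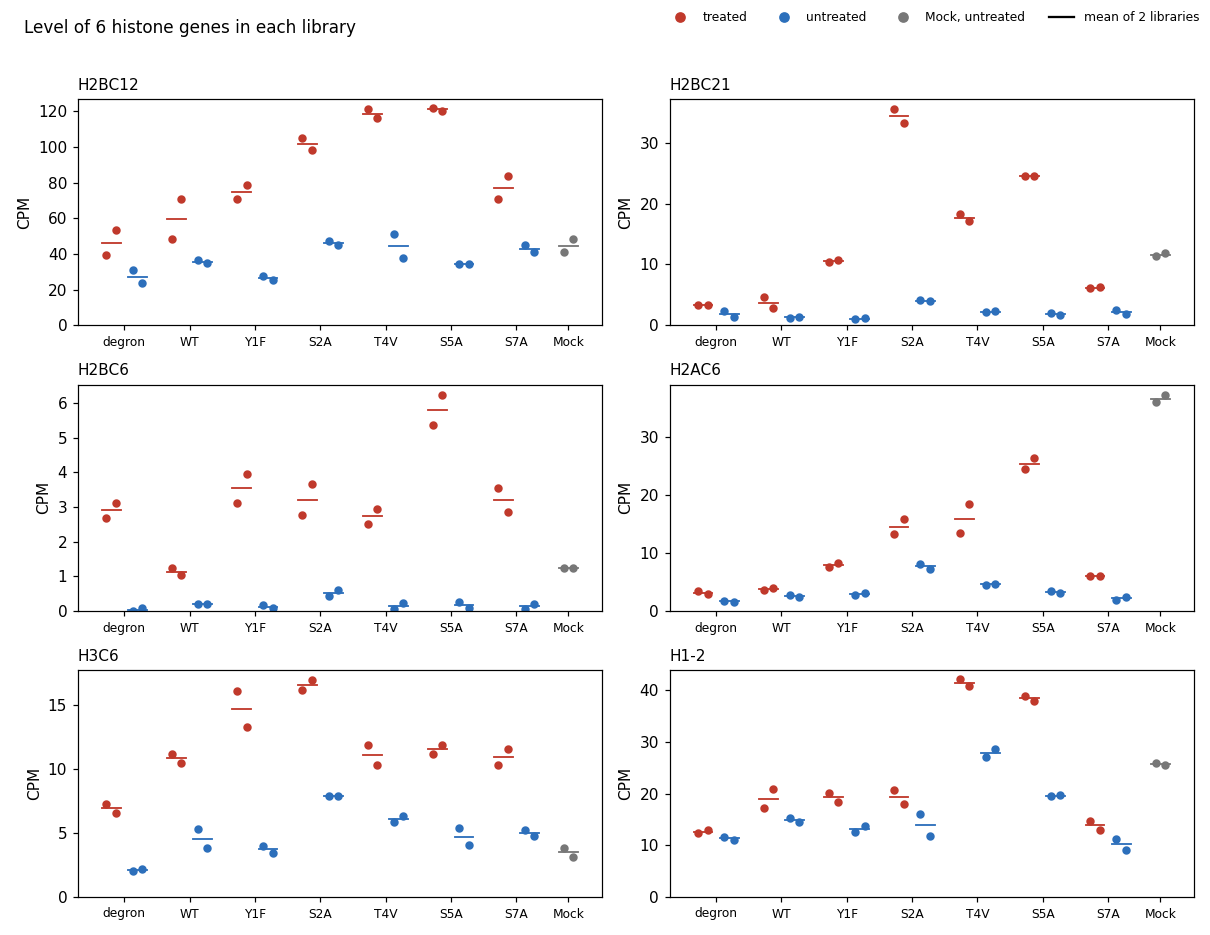
Level in CPM of H2BC12, H2BC21, H2BC6, H2AC6, H3C6 and H1-2 in each library (points) with the mean of 2 (bars), in 7 lines treated (red) or untreated (blue) and in Mock (grey). H2BC12 is above 90 CPM in the treated libraries of S2A, T4V and S5A, whereas H1-2 has 12.4 and 12.9 CPM in treated and 11.6 and 11 CPM in untreated degron libraries.

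Of the 6 H3 genes tested, 3 rose in WT, 5 in each of the degron, T4V and S7A lines and 6 in each of Y1F, S2A and S5A. All but H3C6 and H3C10 passed the filter through treated or Mock libraries. H3C6 rose in all 7 lines, by 0.86 to 1.99 on the log2 scale: it had 16.1 and 13.3 CPM in treated Y1F libraries, against 4.0 and 3.44 CPM in untreated ones (1.99 ± 0.17, edgeR adjusted p = 9.2e-09), and 11.2 and 10.5 CPM in treated WT libraries, against 5.28 and 3.82 CPM in untreated ones (1.25 ± 0.16, edgeR adjusted p = 4.8e-05). H3C10 rose in all 7 lines by 1.31 to 2.51 on the log2 scale, and had 7.70 and 8.22 CPM in treated Y1F libraries, against 1.22 and 1.55 CPM in untreated ones. H3C1, at 237 counts over the 30 libraries, rose in all 7 as well. In the WT line it had 12 counts in treated libraries and none in untreated ones, at least 4.56-fold higher against 3 counts over the group. In S2A it had 2.36 and 2.12 CPM in treated and 0.0707 and 0.200 CPM in untreated libraries (3.94 ± 0.39, edgeR adjusted p = 2.4e-07). H3C2 had its largest change in S7A, 34 counts in treated against 2 in untreated libraries, a ratio of 19.5 with a counting interval of 5.00 to 167. H3C12, which overlaps H2AC17, rose in 6 lines, all but WT. H3C13, of which 12.6% of the 150-base windows also occur in another member, rose in Y1F, S2A and S5A.

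The H4 genes were the lowest class in reads, with a summed level of 4.78 to 17.9 CPM in treated and 2.00 to 5.94 CPM in untreated libraries of the 7 lines. Of the 5 tested, 3 rose in each of the degron and S7A lines, 2 in each of WT and S2A, and 4 in each of Y1F, T4V and S5A. All but H4C8 and H4C16 passed the filter through treated or Mock libraries. H4C8 had 4.95 and 6.44 CPM in treated S5A libraries, against 0.693 and 1.75 CPM in untreated ones (2.28 ± 0.26, edgeR adjusted p = 3.4e-07). In the WT line it had 1.82 and 1.31 CPM in treated and 1.26 and 1.18 CPM in untreated libraries (0.34 ± 0.31, edgeR adjusted p = 0.62). H4C9 rose in all 7 lines, most in S5A, where it had 3.86 and 2.96 CPM in treated and 0.252 and 0.239 CPM in untreated libraries (3.74 ± 0.31, edgeR adjusted p = 4.2e-09). H4C14 rose in all 7 lines by 1.64 to 3.78 on the log2 scale, but 92.2% of its 150-base windows also occur in another member, mostly H4C15, so its reads cannot be told apart from those of the copy. H4C16, which stands alone on chromosome 12, rose in Y1F (1.31 ± 0.47, edgeR adjusted p = 0.029) and passed the test in no other line. Its values elsewhere were 0.34 to 0.86, with edgeR adjusted p-values up to 0.77. H4C5, named after its values were seen, rose in T4V and S5A.

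The difference in change between a mutant line and the WT line was tested directly for each member. These 5 tests share the 4 WT libraries. The 35 include members that passed the filter through treated or Mock libraries, so the counts over them are a description only. Among the members named here, H2BC6, H3C2, H2BC18 and H3C13 are such members. In S5A, 10 of 35 members changed more than in WT and none less, where 6.4% of all genes tested had a larger change and 11.7% a smaller one. They were H2AC6 (difference of log2 fold changes 2.41 ± 0.24, edgeR adjusted p = 9.6e-07), H2BC21 (2.22 ± 0.32), H2BC11 (2.02 ± 0.27), H2BC5 (1.62 ± 0.23), H2BC6 (2.52 ± 0.80), H2BC12 (1.08 ± 0.24), H2AC11 (1.87 ± 0.56), H4C8 (1.94 ± 0.41), H3C2 (1.92 ± 0.64) and H1-2 (0.62 ± 0.19, but -0.12 with the authors' factors). In Y1F, 8 of 35 changed more, where 3.42% of all genes did and 6.31% changed less: H2BC21 (1.85 ± 0.35), H2BC5 (1.70 ± 0.25), H2BC26 (1.75 ± 0.42), H2BC18 (3.09 ± 0.90), H2BC11 (1.06 ± 0.30), H2AC6 (0.91 ± 0.25), H3C13 (3.85 ± 1.13) and H3C6 (0.74 ± 0.23). In T4V, H2AC6 (1.27 ± 0.24), H2BC11 (1.63 ± 0.27) and H2BC21 (1.53 ± 0.31) changed more than in WT, where 1.36% of all genes did and 2.35% changed less. In S2A H2BC21 changed more (1.61 ± 0.30), where 2.87% of all genes did and 4.66% changed less. In S7A none of the 35 passed in edgeR or in DESeq2, where 0.325% of all genes had a larger and 0.495% a smaller change in edgeR. At an unadjusted p under 0.05 in edgeR there were 5 of the 35, all positive. Of the 19982 genes tested, 2676 were at that level in either direction.

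**Figure D4:**
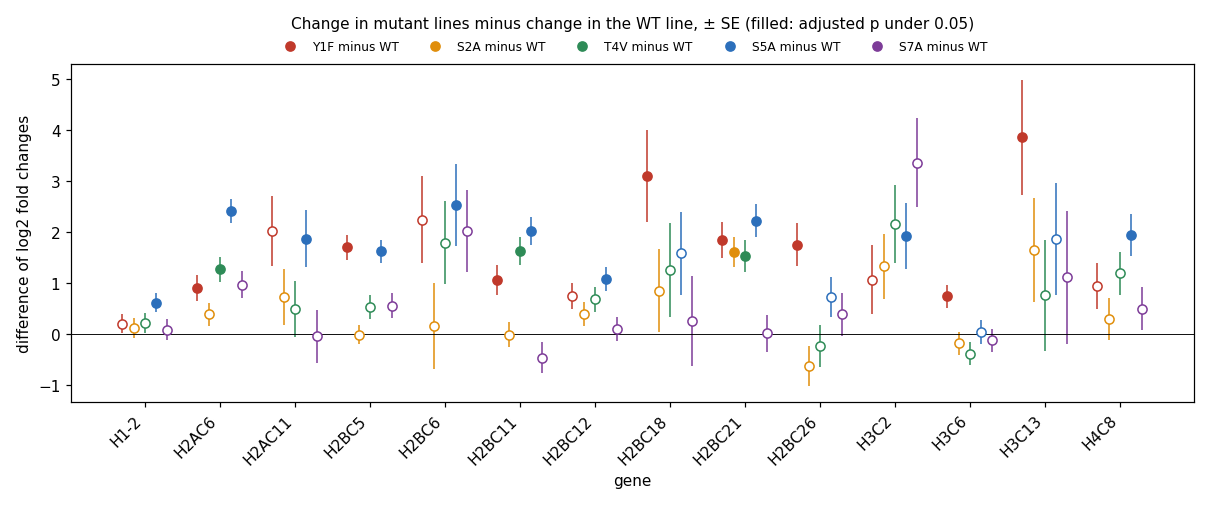
Change in a mutant line minus change in the WT line, as a difference of log2 fold changes ± SE (edgeR, 2 libraries a group), for each member called in at least 1 of the 5 mutant lines. Filled points passed an adjusted p under 0.05: H2BC21 is filled for Y1F, S2A, T4V and S5A, and no point of S7A is filled.

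Against the degron line, which has no replacement RPB1, 2 members changed less in the WT line and none more, where 3.79% of all genes tested had a smaller and 8.24% a larger change. H2BC5 differed by -1.36 ± 0.25 (WT minus degron, edgeR adjusted p = 8.7e-04) and H2BC6 by -3.55 ± 1.01 (edgeR adjusted p = 0.031). For H2BC6 the untreated libraries held 1 count in the degron line, so its size rests on few counts, and it passed the filter through treated or Mock libraries. Neither passed the test with the authors' factors, at -0.74 for H2BC5 (edgeR adjusted p = 0.13) and -3.01 for H2BC6 (edgeR adjusted p = 0.055). The scalings moved these counts. With mitochondrial scaling 4 members changed more than in WT in Y1F (1.46% of all genes), 1 in S2A (0.991%), 3 in T4V (0.13%) and 5 in S5A (1.88%), and 2 changed less in WT than in the degron line (1.1%). With the authors' factors 4 changed more in Y1F (0.896% of all genes), 2 in T4V (0.0601%), 1 in S2A (0.696%) and 5 in S5A (1.41%), and in S7A H3C2 did (0.345%). H2AC13 then changed less in S5A (42.2%) and H3C10 in S7A (21.5%), while 4 members changed more in WT than in the degron line (30.2%): H2BC21, H2AC25, H1-2 and H2BC11. For H2BC12 the log2 fold changes with TMM were 0.74 ± 0.17 in WT and 0.77 ± 0.18 in the degron line.

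The size of these changes depended on how libraries were scaled. The mitochondrial mRNAs summed to 32300 to 46000 CPM in treated and 25300 to 32600 CPM in untreated libraries of the 7 lines. Scaling by the 13 mitochondrial mRNAs moved the median log2 fold change of all genes tested to -0.42 in the degron line, -0.30 in Y1F, -0.17 in WT, -0.54 in T4V, -0.50 in S2A, -0.38 in S7A and -0.70 in S5A. The factors solved from the authors' deposited base means moved it to -0.79 in the degron line, -0.82 in Y1F, -0.19 in WT, -0.41 in T4V, -0.53 in S2A, -0.81 in S7A and -0.92 in S5A. The median of the 35 members stayed above 0 under both, at 0.92 to 1.77 under mitochondrial scaling and 0.67 to 1.45 under the authors' factors. With mitochondrial scaling none of the 35 fell, where 42.5% of all genes fell in the degron line, 36.7% in Y1F, 9.48% in WT, 48.3% in T4V, 46.1% in S2A, 38.3% in S7A and 56.8% in S5A. Under that scaling 16 rose in the degron line (9.72% of all genes), 29 in Y1F (13.3%), 13 in WT (2.03%), 23 in T4V (4.16%), 22 in S2A (7.41%), 20 in S7A (9.27%) and 27 in S5A (10.6%). With the authors' factors 13 rose in the degron line (6.93% of all genes), 21 in Y1F (8.06%), 10 in WT (1.37%), 23 in T4V (4.44%), 21 in S2A (6.88%), 16 in S7A (6.49%) and 24 in S5A (8.75%). In the degron line 3 members then fell, H1-2 (-0.69), H1-4 (-1.73) and H2BC11 (-0.82), where 60.8% of all genes fell. None fell in the other lines, where the share of all genes was 60.0% in Y1F, 1.9% in WT, 33.7% in T4V, 43.9% in S2A, 61.4% in S7A and 62.5% in S5A. The members that rose in all 7 lines numbered 15 with TMM, 8 under mitochondrial scaling and 5 under the authors' factors: H1-3, H2BC5, H2BC6, H2BC15 and H3C1. Of the last 5, H1-3, H2BC6 and H3C1 passed the low-count filter through treated or Mock libraries, as did H2AC16, H4C14 and H4C9 of the 15. These counts are therefore a description only.

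**Figure D5:**
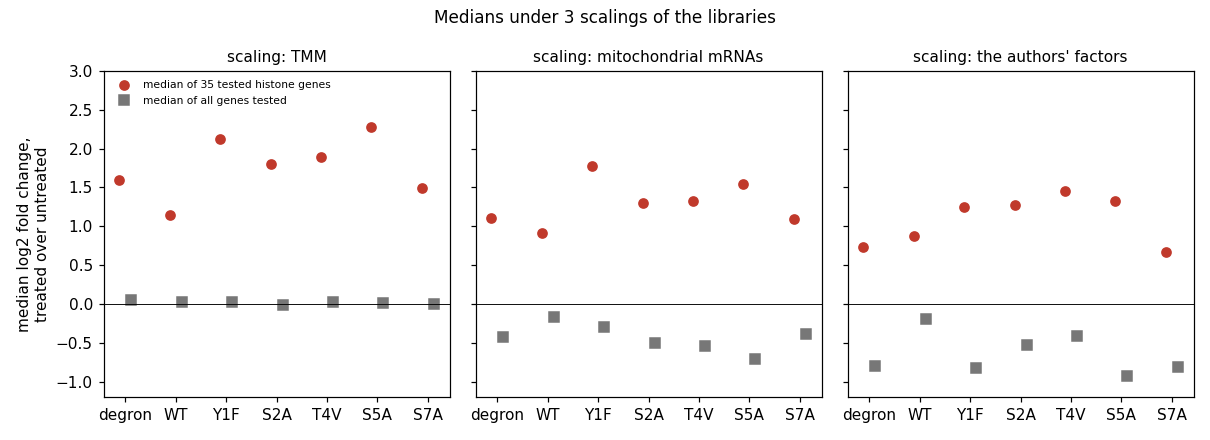
Median log2 fold change, treated over untreated, of the 35 tested histone genes (red circles) and of all genes tested (grey squares) in 7 lines, with libraries scaled by TMM, by mitochondrial mRNAs or by the authors' factors. The median of all genes is between -0.01 and 0.05 with TMM and falls to -0.92 in S5A with the authors' factors, and the histone median lies above it in each line under each scaling.

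The authors' deposited tables hold a comparison for each line, and members are counted here where its adjusted p was below 0.05. The authors' deposited tables list 2 members as higher and 1 as lower in the degron line, 15 higher in Y1F, 12 in T4V, 11 in S2A, 3 in S7A and 17 in S5A, and none lower in those 5 lines. Over all genes with an adjusted p, the authors' deposited tables list 2.54% as higher and 47.1% as lower in the degron line, 2.9% and 49.5% in Y1F, 1.47% and 32.8% in T4V, 3.2% and 39.7% in S2A, 2.34% and 47.8% in S7A, and 4.04% and 49.0% in S5A. In WT the authors' deposited table has no member on either side, and 0.074% of all genes higher and 0.0296% lower. The authors' deposited tables give an adjusted p for 22 to 49 members a line, and a median log2 fold change of 0.59 to 1.45 over those.

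Members with long and with short gene models were counted apart. The counts are a description only, to be read against the shares of all genes that rose, 3.09% in WT to 25.5% in S5A. No such share was taken by length. Both sets hold members that passed the filter through treated or Mock libraries. H2BC6 and H4C14 are such members with a long model, and H1-3 and H3C1 with a short one. The tables' lengths gave 14 tested members a model of 1000 bases or more and 21 a shorter one. In the degron line 10 of the 14 and 14 of the 21 rose, in WT 8 and 8, in Y1F 14 and 18, in S2A 11 and 18, in T4V 13 and 16, in S5A 13 and 20, and in S7A 10 and 15. H2BC12, at 495 bases, and H1-2, at 731 bases, are short models, and H2BC21 (2224 bases), H2AC6 (1668 bases) and H3C6 (2679 bases) are long ones. Gene tables do not say where in a gene the reads lie, so reads ending at the stem-loop and reads past it were counted together. H2BC15, named after its values were seen, with a model of 4265 bases that spans H2AC15 and H2AC16, rose in all 7 lines by 1.59 to 2.12, and reads of these overlapping genes may be shared. H2BC5, H2BC6 and H2BC18 overlap a gene on the other strand in GENCODE 29, and H2BC5 and H2BC18 also overlap a gene on their own strand. The strand setting of the counts is not given in the sources used here.

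Genes that make and process histone mRNA, those of S phase and the replication-independent histones are given as counts, to be read against the shares of all genes that rose and fell in each line above. Of the 24 tested genes for 3′ processing and transcription of histone genes, 1 rose and 9 fell in the degron line, 1 and 12 in Y1F, 0 and 5 in S2A, 0 and 4 in T4V, 0 and 14 in S5A, 1 and 8 in S7A, and 0 and 0 in WT. SRRT, the ARS2 protein that links the cap to 3′ processing, fell in the degron, Y1F, T4V and S5A lines, by 1.09 ± 0.17 on the log2 scale in Y1F (edgeR adjusted p = 2.5e-05). UPF1, a helicase needed for histone mRNA decay, fell in the degron line (-0.55 ± 0.16) and in Y1F (-0.66 ± 0.16). CPSF3, the nuclease that cuts histone pre-mRNA, fell in S5A (-0.44 ± 0.13) and S7A (-0.47 ± 0.13). SLBP and LSM11, which bind the stem-loop and belong to the U7 snRNP and were named after their values were seen, both fell in the degron line, SLBP by 0.42 ± 0.10 and LSM11 by 1.21 ± 0.14 on the log2 scale. SLBP had a value of 0.09 ± 0.09 in S5A (edgeR adjusted p = 0.46), where the most histone members rose, but -0.66 under mitochondrial scaling and -0.87 under the authors' factors, both past the test. U7 RNA, RNU7-1, had no count in any library.

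Of 31 tested genes of S phase and DNA replication, 6 rose and 10 fell in the degron line, 0 and 2 in WT, 5 and 15 in Y1F, 5 and 12 in S2A, 5 and 9 in T4V, 2 and 16 in S5A, and 2 and 10 in S7A. MCM3, a subunit of the replicative helicase, fell in 6 lines, by 1.15 ± 0.11 on the log2 scale in S5A (edgeR adjusted p = 3.8e-08), and its value in WT was -0.31 ± 0.11. MCM7 fell by 0.90 ± 0.15 in Y1F, and RRM1, which makes deoxyribonucleotides, rose by 0.46 ± 0.11 in T4V. The 11 tested replication-independent histones, whose mRNAs are polyadenylated, moved in both directions: 3 rose and 7 fell in S5A, 6 and 3 in S2A, 3 and 4 in the degron line, 1 and 4 in Y1F, 4 and 2 in T4V, 2 and 5 in S7A, and 0 and 1 in WT. H2AZ1 rose by 0.49 ± 0.08 in S2A and fell by 0.43 ± 0.08 in S5A, and H3-3B fell by 0.47 ± 0.07 in S5A. These directions hold for TMM scaling. Of the 11 replication-independent histones, 0 or 1 rose with mitochondrial scaling and none with the authors' factors, while 2 to 10 and 0 to 10 fell. With mitochondrial scaling 0 to 2 of the 31 genes of S phase rose and 9 to 29 fell, and none of the 24 processing genes rose while 7 to 21 fell. With the authors' factors 0 or 1 of the 31 rose and 1 to 30 fell, and none of the 24 rose while 0 to 23 fell. H2AZ1 in S2A was then at -0.02 and RRM1 in T4V at -0.01 with the authors' factors.

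Other RNAs without a poly(A) tail were nearly absent, with the exception of RN7SL1. Of 29 such RNAs in the tables, such as small nuclear and cytoplasmic RNAs, 1 was tested, RN7SL1, and their summed level was 14.0 to 53.4 CPM in treated and 13.7 to 58.3 CPM in untreated libraries of the 7 lines. RN7SL1 made up most of that sum, at 12.1 to 51.6 CPM in treated and 12.9 to 57.2 CPM in untreated libraries. Its mean of 25.4 CPM was above that of every histone member but H2BC12. Whether histone reads in these libraries came from RNA without a tail was not tested. RN7SL1 passed the test in no line. Markers of some other cell types moved with treatment too. The 8 immune markers summed to 8.12 to 31.0 CPM in treated and 2.41 to 5.59 CPM in untreated libraries. In a line 2 to 4 of 5 tested rose. Among all genes tested under 5 CPM, as these 5 were, 4.45% rose in WT and up to 36.1% in S5A. PTPRC and CD3E had at most 3 counts in any library. The 6 endothelial markers summed to 2.75 to 12.3 CPM in treated and 1.71 to 3.85 CPM in untreated libraries, and CDH5 had at most 4 counts. The fibroblast markers summed to 20.6 to 74.1 CPM in treated and 23.5 to 64.5 CPM in untreated libraries, ranges that overlap. The kidney and neuronal markers summed to 137 to 1020 CPM in treated and 893 to 1690 CPM in untreated libraries. Their part in the histone result was not tested.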

How the data were processed

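Poly(A) RNA of 30 libraries, 2 in each of 15 groups, was sequenced with reads of 150 bases and 10% S2 fly cells as spike-in, per the labels' protocols. The submitters' processing notes name Trim Galore 0.6.2, STAR 2.7.3a, featureCounts 2.0.1 and DESeq2 1.24.0 with the builds hg38 and dm6. Which annotation release, strand setting and rule for multiply matching reads were used is not stated there or in the labels. The authors deposited raw counts and TPM per gene, which were used as they are. Their deposited comparison tables give a base mean, a signal of counts divided by size factors, with log2 fold changes and adjusted p-values. The size factors were solved from those base means.

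The test was edgeR's robust quasi-likelihood test (edgeR 4.0.16, R 4.3.3) on the counts over all 30 libraries with TMM factors, 1 coefficient a group and 15 residual degrees of freedom. The filter (filterByExpr, minimum count 10, minimum total 15) kept 19982 genes and left out 41596. A call is a Benjamini-Hochberg adjusted p under 0.05 over the genes tested, and the SE is the log2 fold change divided by the root of F. Library totals were 10866089 to 17912802 counts. Counting intervals (95%, exact) and the floor of 3 counts over a group of 2 libraries cover counting error only. Replicates of every group differed by more than sampling noise, with a chi-square of 1.26 to 24.7 per degree of freedom. The labels do not state separate cultures, so p-values measure the spread between libraries, which may be technical. The members and lists were chosen with earlier results of these data known.

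Genes named in full are POLR2A, up to 4 tested members a class with the highest mean CPM, the members with the largest and smallest change of each line, those called in a difference between lines, and up to 6 genes of each other list. Motifs and stem-loops were searched with Python 3.11.15 in RefSeq promoters of GRCh38.p14 and GENCODE 29 transcripts. The test was checked on simulated counts. Alternatives were DESeq2 1.42.0 (size factors and Wald test), scaling by mitochondrial mRNAs or the authors' factors, other filters, each line's own libraries only, a replicate block and leaving out each library. Chosen after seeing the data were counts over members that reach the filter level without treatment, a crossed block, a fit without Mock, and a GC and length correction, for which 33 of the 35 tested members had values. 1 gene is not reported here.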

Additional observations from a re-analysis of the deposited data

Results flagged for a closer look

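In 24 cases the change of a histone gene differed between lines by the test of the difference itself (edgeR adjusted p under 0.05), and each is given here as a difference of log2 fold changes. Between S5A and WT the differences were 2.41 for H2AC6, 2.22 for H2BC21, 2.52 for H2BC6, 2.02 for H2BC11, 1.94 for H4C8, 1.92 for H3C2, 1.87 for H2AC11, 1.62 for H2BC5, 1.08 for H2BC12 and 0.62 for H1-2. Between Y1F and WT they were 3.85 for H3C13, 3.09 for H2BC18, 1.85 for H2BC21, 1.75 for H2BC26, 1.70 for H2BC5, 1.06 for H2BC11, 0.91 for H2AC6 and 0.74 for H3C6. Between T4V and WT they were 1.63 for H2BC11, 1.53 for H2BC21 and 1.27 for H2AC6, and between S2A and WT 1.61 for H2BC21. Between WT and the degron line they were -1.36 for H2BC5 and -3.55 for H2BC6. H3C13 had 61 counts in treated and 3 in untreated Y1F libraries, so its difference rests on few counts. H3C13, H2BC6, H2BC18 and H3C2 passed the low-count filter through treated or Mock libraries.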

How the results depend on the processing

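With the authors' factors 13 members rose in the degron line, 21 in Y1F, 10 in WT and 16 in S7A, and the numbers called in the differences were 4 for Y1F minus WT, 6 for S5A minus WT (5 higher, H2AC13 lower), 2 for S7A minus WT and 4 for WT minus degron, all 4 higher. Under these factors, among changes called with TMM, the sign turned for H2BC21 (-0.02), H2AC25 (-0.26) and H2BC12 (-0.09) in the degron line, H1-2 in Y1F (-0.32), S2A (-0.05), S7A (-0.37) and S5A minus WT (-0.12), and H2AC25 in S5A (-0.12); in the degron line H1-2 (-0.69) and H2BC11 (-0.82), positive and not called with TMM, fell. With mitochondrial scaling it turned for H1-2 in S2A (-0.02) and T4V (-0.01), and 4 members were called for Y1F minus WT and 5 for S5A minus WT. A filter at a mean of 1 CPM left 19 members to test. Of these, 15 rose in the degron line, 17 in S2A, 19 in Y1F, 18 each in S5A and T4V and 16 in S7A. With that filter 1 was called for S7A minus WT. The mean includes treated and Mock libraries, through which a member can reach it. With own libraries only 3 rose in WT, and 3 were called for Y1F minus WT, 0 for T4V minus WT and 1 for WT minus degron. DESeq2's Wald test called 5 for Y1F minus WT and 1 for WT minus degron, and without a low-count filter 1 was called for WT minus degron. For the filter at 1 CPM, own libraries only, DESeq2 and no filter, no share of all genes is given. Those counts describe the members only. Of the alternatives chosen after seeing the data, the GC and length correction called 3 for S2A minus WT and 2 for S7A minus WT. It also called more of all 19982 genes: 1747 with a larger and 2914 with a smaller change for S2A minus WT. For S7A minus WT these were 866 and 1458. The cause of these moves was not tested, apart from the smaller number of genes or libraries in some.

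With the replicate block 10 members rose in WT, 3 were called for Y1F minus WT and 1 for WT minus degron. Deviations of same-numbered libraries correlated at -0.75 in the degron line, -0.62 in Y1F and -0.50 in WT but at 0.65 in S7A, so the numbers do not pair the libraries; a crossed pairing, also chosen after seeing the data, in the degron, WT and Y1F lines gave 1 call for S7A minus WT. Leaving out 1 library at a time, 18 to 22 members rose in the degron line, 22 to 25 in S2A, 6 to 13 in WT, 28 to 30 in Y1F, 30 to 31 in S5A, 25 to 27 in T4V and 21 to 24 in S7A; a group left with 1 library is assumed to vary like the others. The calls were 2 to 7 for Y1F minus WT, 1 to 2 for S2A minus WT, 2 to 3 for T4V minus WT, 6 to 10 for S5A minus WT, 0 for S7A minus WT and 1 to 3 for WT minus degron. In WT, 10 rose without untreated replicate 1 and 6 without untreated replicate 2. For Y1F minus WT, 3 and 5 were called without WT untreated replicates 1 and 2, 2 and 5 without Y1F untreated replicates 1 and 2, and 4 without either treated Y1F library. For S5A minus WT 6 were called without WT untreated replicate 1 and 6 without S5A treated replicate 2, and for S2A minus WT 2 without WT treated replicate 1. For WT minus degron 1 was called without degron untreated replicate 1, WT untreated replicate 1 or 2, or WT treated replicate 2. Members under 5 CPM are limited by counting. No share of all genes is given beside the counts with a block or with a library left out, so they describe the members only.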
